A study of Bos taurus with 24 samples.

Results

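The miRNAs described here are the bovine miR-2286 to miR-2904, a stretch of numbers given to miRNAs first named in cattle. Every entry of the deposited tables named bta-miR with a number in that range was taken, whatever its suffix, without use of any measured value. This gave 160 of the 870 miRNAs listed, from 135 hairpin numbers, and 57 of them carried a -5p or -3p name. The rest of the table held 357 bovine miRNAs numbered below miR-2284 or belonging to let-7, 58 of the bovine miR-2284 and miR-2285 group, 51 bovine miRNAs numbered above miR-2904 and 244 human-named miRNAs.

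Small RNA was sequenced from plasma of 8 non-pregnant yearling Holstein-Friesian heifers, each bled 3 times in a cycle, at observed oestrus (Day 0) and again on Days 8 and 16. All animals had been oestrus-synchronised with a progesterone insert, the gonadotrophin-releasing hormone analogue buserelin and the prostaglandin analogue cloprostenol, and no untreated or male animals were sampled. The 24 libraries therefore formed 3 groups of 8, with every heifer in each group, and heifers are named by the number in their labels. Day 0 is the follicular end of the cycle, and Days 8 and 16 fall while the corpus luteum secretes progesterone.

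A miRNA is cut from a hairpin precursor, and either arm of the hairpin, called 5p or 3p, can be kept as the mature RNA that guides repression of messenger RNAs while the other is degraded. Many hairpins lie inside the introns of protein-coding genes. miRNAs found in plasma are carried in vesicles and protein complexes and come from blood cells, platelets, endothelium and solid organs. For most miRNAs of this number range no targets or tissue of origin are given by the sources used here, so each is described by its level, its place in the genome and the gene around it.

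Levels are given in RPMM, the deposited reads of a miRNA scaled to a common number of genome-mapped reads (RPM of mapped reads). Mature lengths were 18 to 25 nucleotides with a median of 22, and levels were not divided by length. The paper names adaptor ligation as a bias of sequencing that affects the relative abundance of a miRNA. Comparisons between different miRNAs, or between arms of a hairpin, are therefore comparisons of read counts. Total miRNA counts per library were 1299679 to 4700764 and genome-mapped reads 2278035 to 6194402, so that 1 read stood for 0.161 to 0.439 RPMM. Mapped reads on Days 0, 8 and 16 averaged 3918066 ± 979462, 4894047 ± 888922 and 4075763 ± 1261614 (SD, n = 8). The erythrocyte markers miR-451, miR-486, miR-144 and miR-16b, the platelet, leukocyte and liver markers were all detected, and miR-486 alone took 6.07% to 45.1% of the counts of a library. In plasma a higher level can come from more releasing cells or from more RNA released per cell, and these cannot be told apart.

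Most of the 160 miRNAs were detected, and nearly all at very low levels. At least 1 read was found in some library for 140 of them (87.5%), and 20 (12.5%) had no count in any of the 24 libraries. The pooled 103103005 mapped reads put the limit that a count of 0 allows at 0.0291 RPMM (3 counts), which covers counting error only. Detection was continuous for 28 miRNAs, found in all 24 libraries, while 45 were found in 12 to 23 libraries and 67 in 1 to 11. The sparsest were 21 miRNAs seen in 1 library, and 48 detected miRNAs had fewer than 10 reads in total.

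By a limit of more than 10 counts, 47 of the 160 were detected in some library and 5 in every library, namely miR-2419-5p, miR-2892, miR-2376, miR-2403 and miR-2336. A mean level of 1 RPMM or more was reached by 38 (23.8%), of 10 RPMM or more by 6, of 25 RPMM or more by 4 and of 100 RPMM or more by 1. The median of the 160 mean levels was 0.156 RPMM. That median was 18.7 RPMM for bovine miRNAs numbered below miR-2284, 0.661 RPMM for the miR-2284 and miR-2285 group, 0.514 RPMM for bovine miRNAs numbered above miR-2904 and 0 for human-named miRNAs.

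**Figure D1:**
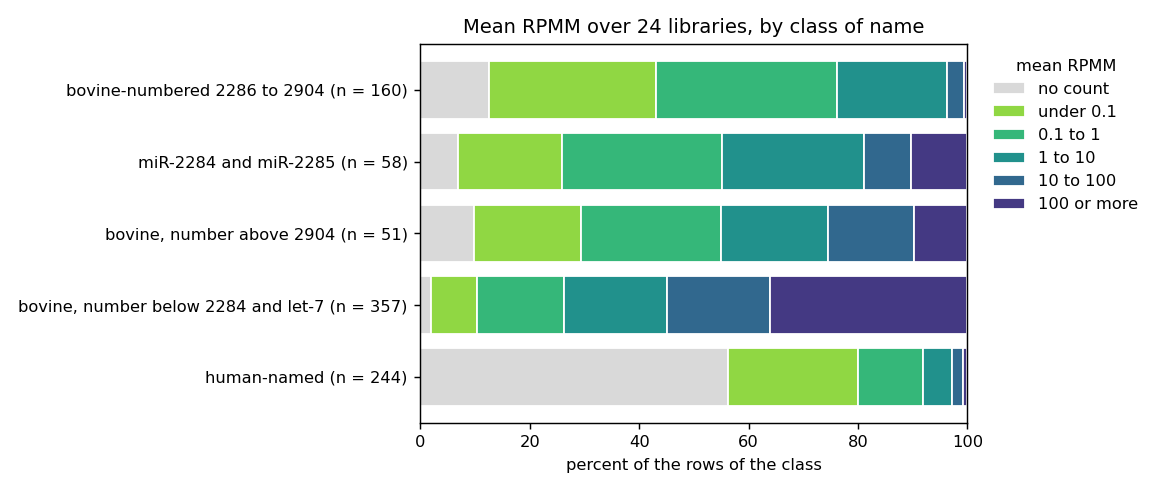
Share of the listed miRNAs of each class of name (bars, in percent of the class, n given for each) by their mean RPMM over 24 libraries, from no count to 100 RPMM or more. In the class miR-2286 to miR-2904, 38 of 160 reach 1 RPMM and 1 reaches 100 RPMM.

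Together the 160 miRNAs took 76153 counts, 0.104% of all miRNA counts, and between 0.0508% and 0.188% of a single library. That sum was uneven. miR-2419-5p alone held 60.9% of it, the first 4 miRNAs held 78.6%, the first 6 held 83.2% and the first 12 held 89.4%, leaving the remainder to 128 other detected miRNAs.

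Along the number range, detection was lowest in the small group with the highest numbers. Of 79 miRNAs listed from miR-2286 to miR-2399, 71 were detected and 17 had a mean of 1 RPMM or more. Of 70 listed from miR-2400 to miR-2499, 62 were detected and 17 had such a mean. From miR-2880 to miR-2904, 7 of 11 were detected and 4 had a mean of 1 RPMM or more. The miRNAs with no count were miR-2302, miR-2343, miR-2344, miR-2363, miR-2368-5p, miR-2374, miR-2384, miR-2392, miR-2406, miR-2417, miR-2430, miR-2440, miR-2458, miR-2473, miR-2481, miR-2485, miR-2881, miR-2882, miR-2885 and miR-2899.

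Positions are given as the deposited table has them, and the table names no genome build. Neighbouring genes come from RefSeq (ARS-UCD2.0), which was matched by miRNA name and used for names and order only. A RefSeq miRNA gene was found for 152 of the 160, on the deposited chromosome for 144 and on another for 8. For 122 of the 152 (80.3%) it lay within the span of a protein-coding gene, against 252 of 430 (58.6%) matched bovine miRNAs outside the number range. Among the matched miRNAs at 1 RPMM or more the number was 28 of 37 (75.7%). Whether a hairpin is intronic or exonic was not examined.

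The highest level was that of miR-2419-5p (chr4, 68649875 to 68649896, minus strand), a 22-nucleotide miRNA whose locus lies between NOD1, an intracellular receptor for bacterial peptidoglycan, and ZNRF2, a ubiquitin ligase. It averaged 455 ± 212 RPMM (SD, n = 24 libraries), with single libraries between 160 and 975 RPMM. This put it at place 89 of the 870 miRNAs by mean level. It was the 1 miRNA of the range that exceeded 25 RPMM in 6 or more libraries on every day, the stricter of the filters used for testing.

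miR-2415-3p (chr3, 109262218 to 109262238, plus strand) was next at 57.7 ± 52.1 RPMM (SD, n = 24). Its RefSeq locus is inside a long non-coding RNA between ST3GAL3, a sialyltransferase, and KDM4A, a histone demethylase. Its range of 1.21 to 191 RPMM was far wider than that of miR-2419-5p and is taken up by heifer further on.

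miR-2892 (chr12, 75102030 to 75102051, minus strand), between TMTC4 and the sodium leak channel gene NALCN, averaged 43.3 ± 41.5 RPMM (SD, n = 24; range 10.8 to 175). miR-2376 (chr23, 7775479 to 7775501, minus strand) lies within TAPBP, whose product tapasin loads peptides onto MHC class I, and averaged 35.1 ± 18.0 RPMM (SD, n = 24; range 15.8 to 73.8). These 4 were the miRNAs of the range with a mean of 25 RPMM or more.

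miR-2403 averaged 18.4 ± 6.59 RPMM (SD, n = 24). It is listed on chr16 (5997099 to 5997119, plus strand) but on chromosome 28 within the carnitine transporter gene SLC16A9 in RefSeq, so its position is uncertain. miR-2457 (chr7, 20813866 to 20813887, minus strand) lies within SLC22A4, an organic cation and ergothioneine transporter gene, and averaged 14.4 ± 8.47 RPMM (SD, n = 24).

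The other 6 of the 12 highest lay between 4.89 and 9.85 RPMM. They were miR-2299-5p within B3GLCT, a glucosyltransferase gene, miR-2320-5p, miR-2454-3p within DNMT1, the maintenance DNA methyltransferase, miR-2474 within the adaptor gene SHB, miR-2336 between VPS53 and RFLNB, and miR-2898 between EBF2 and PPP2R2A. All 6 had at least 1 read in each of the 24 libraries, and their lowest and highest libraries ranged from 1.57 to 18.0 RPMM.

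**Figure D2:**
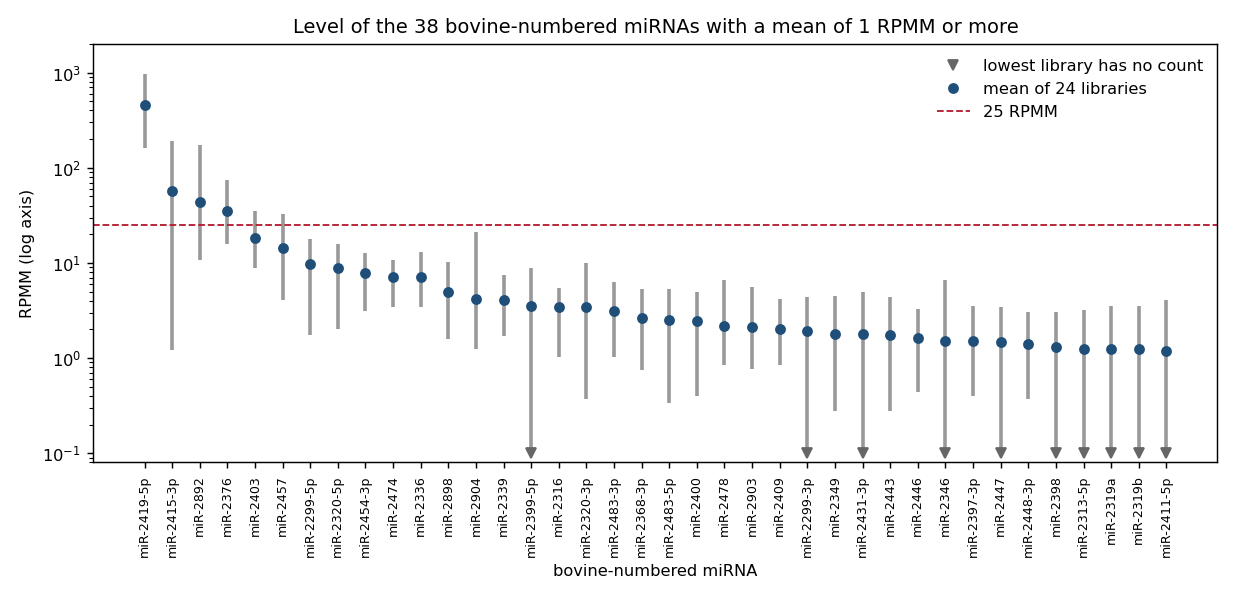
Mean RPMM (points, log axis) and range over 24 libraries (bars) of the 38 miRNAs with a mean of 1 RPMM or more, with the 25 RPMM limit as a dashed line and triangles where the lowest library had no count. miR-2419-5p stands at 455 RPMM, and 34 of the 38 points lie under the dashed line.

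Some low miRNAs of the range lie beside abundant ones, and 4 of them, chosen after their values were seen, are given here. miR-2443 (chr5, 123307475 to 123307498, plus strand) lies between let-7a-3p, 191 bases away, and let-7b, 518 bases away, which belong to the let-7 family of differentiation-associated miRNAs. It averaged 1.76 ± 1.01 RPMM (SD, n = 24) against 77.4 ± 20.2 RPMM for let-7a-3p and 755 ± 281 RPMM for let-7b. Both neighbours were higher in 24 of 24 libraries.

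miR-2475 (chr8, 85961427 to 85961449, plus strand) lies 862 bases from miR-27b and 631 bases from miR-23b-3p, members of the miR-23b cluster. It had 17 counts in 11 libraries, a mean of 0.164 ± 0.209 RPMM, where miR-27b averaged 19219 ± 4353 RPMM and miR-23b-3p 1342 ± 331 RPMM (SD, n = 24). These 2 lie on the same strand and were higher in 24 of 24 libraries. Of the other listed neighbours on that strand, miR-23b-5p, 594 bases away, averaged 0.0283 RPMM. The entry named miR-24 without an arm, 1361 bases away, averaged 0.765 RPMM. A separate entry, miR-24-3p, had at least 10 counts in at least 8 of the 24 libraries and is not the entry given here. miR-2378, 413 bases from miR-877, averaged 0.0704 RPMM against 168 RPMM, and miR-2333, 2289 bases from miR-365-3p, averaged 0.0388 RPMM against 80.0 RPMM, again lower than its neighbour in 24 of 24 libraries.

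Counts could not be separated for a few entries. miR-2319a and miR-2319b, within CKAP5, a microtubule regulator gene, overlap by 21 bases on chr15 and had equal counts in all 24 libraries, 126 reads each, so they were read as the same reads counted for both names. The other 20 miRNAs of the range whose counts equalled those of another entry had at most 2 reads in total. miR-2300a-5p and miR-2300b-3p share the same 22 positions of chr12, on opposite strands within FLT1, a receptor for vascular endothelial growth factor. They averaged 0.109 and 0.215 RPMM. miR-2904 and miR-2887 lie 84 bases apart on chr18 and have no RefSeq match. They averaged 4.16 ± 4.14 and 0.995 ± 0.953 RPMM (SD, n = 24), and the human-named miR-6087, listed 641 bases from miR-2904, averaged 8.49 RPMM.

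Where both arms of a hairpin were listed, the arms could be compared within libraries. Both arms were listed for 25 hairpins of the range, and 12 had an arm at 1 RPMM or more and were tested. Since 1 arm was enough, hairpins could enter only through the arm that was then higher. The numbers called therefore describe these 12 and not hairpins of the range in general. The log2 ratio of 5p to 3p counts (0.5 added to each) was averaged over the 3 days of a heifer. It was then tested with a two-sided exact sign-change permutation test over the 8 heifers, adjusted over the 12 hairpins with a threshold of 0.05. The 5p arm was higher for 4 hairpins and the 3p arm for 6, and 2 did not pass. No wider set of hairpins was tested. The smallest p that 8 heifers allow is 0.0078, which is 0.0104 after adjustment, and it was reached where all 8 heifers lay on the same side.

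Among hairpins with more 5p, miR-2399, within the RNA-binding protein gene RBPMS, had 383 reads of the 5p arm and 4 of the 3p arm, a log2 ratio of 4.38 ± 0.738 (SD, n = 8 heifers). miR-2299 had 1006 and 205 reads and a log2 ratio of 2.47 ± 0.604, with 5p higher in 24 of 24 libraries. miR-2313, within the cholesterol transfer gene GRAMD1B, had 127 and 28 reads (1.95 ± 0.829), and miR-2320 had 928 and 371 reads (1.37 ± 0.517). In each of these the 5p arm was higher in 8 of 8 heifers (exact permutation test, adjusted p = 0.0104).

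The 3p arm was higher elsewhere. miR-2415 had 4 reads of the 5p arm against 5634 of the 3p arm, so that 0.0709% of its reads were 5p, and the log2 ratio was -7.95 ± 2.07 (SD, n = 8 heifers). miR-2454 had 30 and 830 reads (-4.69 ± 0.951). miR-2368, within the kinase gene SNRK, had no 5p read against 273 of the 3p arm, and its ratio of -4.40 depends on the added 0.5.

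Smaller leads of the 3p arm were seen for miR-2397 within GLRX3, with 33 and 156 reads (-2.10 ± 0.560), and for miR-2431, with 47 and 189 reads (-1.90 ± 1.14). In all 5 of these hairpins the 3p arm was higher in 8 of 8 heifers (exact permutation test, adjusted p = 0.0104). miR-2448 had 102 and 140 reads, a log2 ratio of -0.75 ± 0.929 with the 3p arm higher in 6 of 8 heifers (exact permutation test, adjusted p = 0.0469), and lost this call in 6 of the 8 fits that left out a heifer.

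The other two hairpins did not pass, and their arms had close read numbers. miR-2411, within the ubiquitin-associated gene UBAP2L, had 126 reads of the 5p and 104 of the 3p arm, a log2 ratio of 0.50 ± 0.757 with 5p higher in 5 of 8 heifers (exact permutation test, adjusted p = 0.117). miR-2483, within TENM1 on chromosome X, had 258 and 320 reads, a log2 ratio of -0.37 ± 0.484 with 5p higher in 2 of 8 heifers (exact permutation test, adjusted p = 0.0682). The ratios of the 8 heifers spanned 0 for both.

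**Figure D3:**
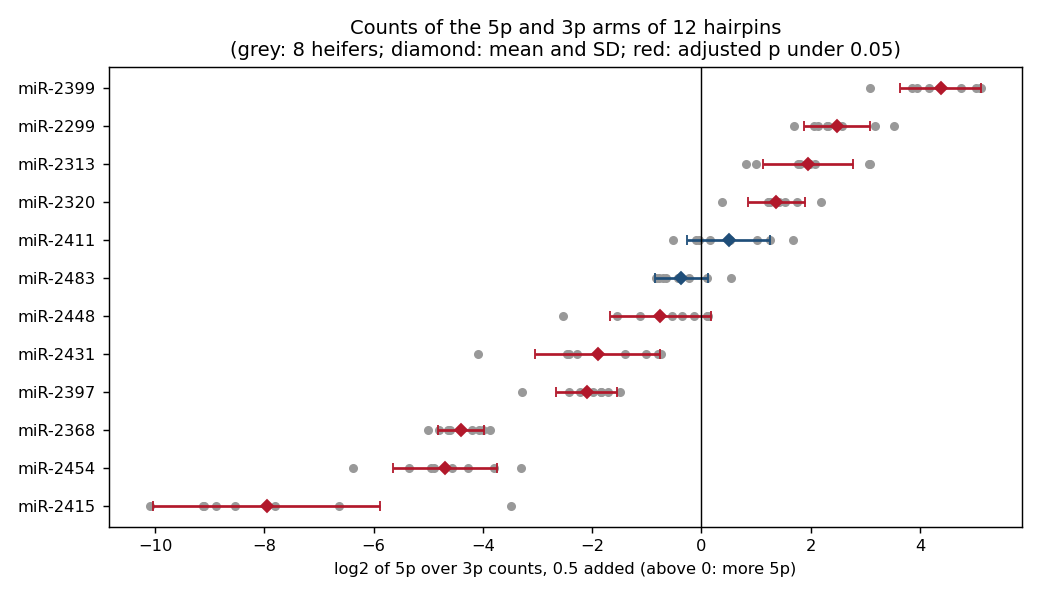
Log2 ratio of 5p to 3p counts (0.5 added) for 12 hairpins, with the 8 heifers as grey points (each the mean of 3 libraries) and the mean and SD as diamonds and bars, red where the adjusted p is under 0.05. miR-2399 lies at 4.38 and miR-2415 at -7.95, while miR-2411 and miR-2483 span 0.

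Whether the level of these miRNAs differed between animals was asked by testing the effect of heifer beside that of day. edgeR's quasi-likelihood test was run on the counts of 325 miRNAs with at least 10 counts in at least 8 of the 24 libraries, 26 of them from the number range. It called 63 of the 325 (19.4%) at an adjusted p under 0.1 and 7 of the 26. Those 7 were miR-2415-3p, miR-2419-5p, miR-2457, miR-2349, miR-2892, miR-2403 and miR-2904, of which miR-2349 passed the filter only through animals in which it was high. At an unadjusted p under 0.05 the numbers were 8 of the 26 and 91 of the 325 (28%). The highest heifer mean was 2.50 times the lowest in the median miRNA of the 26, and 1.99 times in the median of the 325. Counting error widens such a ratio where counts are few. The 26 and the 325 were not matched for level, and its part was not tested.

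miR-2415-3p had the smallest p of all 325 miRNAs for the effect of heifer. Heifer 34 had 175, 191 and 172 RPMM on Days 0, 8 and 16. Heifer 16 had 1.21, 2.66 and 1.32 RPMM, from 3, 14 and 3 counts. The libraries of heifers 20, 22, 25 and 21 lay between 39.3 and 72.3 RPMM and overlapped each other, and those of heifers 18 and 35 lay between 15.0 and 25.7 RPMM and overlapped each other. The 8 animals thus fell into 4 levels whose libraries did not overlap, each kept on all 3 days.

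The ratio of the heifer means of miR-2415-3p was 104, the highest of the 325 miRNAs. Pooled over days, heifer 34 had 1641 counts and heifer 16 had 20. That is a ratio per mapped read of 89.9, with an exact 95% interval of 58.0 to 148 that covers counting error only. On a log2 scale, with the mean of each day taken out, differences between heifers held 98.5% of its variance over the 24 libraries, given as a description. In the other miRNAs of the range with a count this share ran from 9.89% (miR-2397-5p) to 93.2% (miR-2419-5p). It was 33.3% for miR-2307, which had 1 read in all. edgeR's adjusted p for miR-2415-3p was 2.55e-09, and the call was kept in 15 of 15 settings, with an adjusted p of 7.84e-07 or less.

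Blood cell markers separated those animals in part. The summed level of the 4 erythrocyte markers was 67324 to 248527 RPMM in heifer 34 and 36921 to 220837 RPMM in heifer 16, and that of the 4 platelet markers 32225 to 44292 and 29931 to 35203 RPMM, with overlap in both. The 4 leukocyte markers summed to 29490 to 42757 RPMM in heifer 34 and 17040 to 21772 RPMM in heifer 16, without overlap. In heifer 35, which was among the low animals for miR-2415-3p, the leukocyte sum was 33757 to 41966 RPMM. The part of these markers in the result was not tested. With miR-486 and miR-451 as a covariate, an alternative chosen after the data were seen, edgeR's adjusted p for miR-2415-3p was 3.26e-09.

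miR-2419-5p ranked 6 of 325 for the effect of heifer (edgeR, adjusted p = 0.00141). Under the stricter filter it ranked 4 of 181, where 17.7% of miRNAs were called (edgeR, adjusted p = 0.000995), and 29.3% had an unadjusted p under 0.05. Heifer 35 had 660, 837 and 975 RPMM on Days 0, 8 and 16, and heifer 18 had 160, 176 and 177 RPMM. The ratio of their pooled counts per mapped read was 4.79 (exact 95% interval 4.59 to 5.01, counting error only). Heifer 18 lay below every other animal without overlap, while in the order from heifer 35 through 25, 21, 34, 16 and 22 to 20 each animal overlapped the next.

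Erythrocyte RNA differed between the first and the last animals of that order but did not follow it throughout. miR-486 took 22.2% to 45.1% of the counts in heifer 18 and 26.7% to 42.2% in heifer 20, and 8.62% to 16.0% in heifer 35. In heifers 25 and 21, which came next after heifer 35, it took 15.7% to 30.6% and 9.21% to 36.9%, overlapping heifers 18 and 20. With miR-486 and miR-451 as a covariate the adjusted p of miR-2419-5p was 2.18e-05 in edgeR, and the call was kept in 15 of 15 settings.

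miR-2457 was highest in heifer 18 with 24.5, 31.2 and 33.02 RPMM on Days 0, 8 and 16, followed by heifer 20 with 25.9, 16.0 and 23.4 RPMM. It was lowest in heifer 22 with 7.02, 4.43 and 10.3 RPMM. Neighbours in the order overlapped throughout. edgeR's adjusted p was 0.00618, rank 12 of 325, and 0.00176 with the erythrocyte covariate, but 0.132 without heifer 18.

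miR-2349, within the guanine nucleotide exchange factor gene CYTH1, was measured at a far lower level. It reached 10 counts in 8 libraries, all of heifers 21, 22, 25 and 35, so its place among the 325 depended on those animals and its call there (edgeR, adjusted p = 0.0108) is given as a description. It averaged 3.50 ± 0.920 RPMM in heifer 35 and 3.08 ± 0.355 in heifer 21 (SD, n = 3 libraries), from 9 to 18 counts per library. The lowest were heifers 34 and 18 at 0.433 ± 0.164 and 0.680 ± 0.592 RPMM, from 1 to 8 counts. Libraries of the 2 highest animals lay above all those of the 2 lowest. With every miRNA with a count fitted, so that the filter had no part, the adjusted p was 0.0125 (edgeR).

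miR-2892 differed through 3 animals (edgeR, adjusted p = 0.0140, rank 24). Heifer 18 had 175, 71.1 and 22.6 RPMM on Days 0, 8 and 16, heifer 16 had 152, 44.0 and 36.9 RPMM, and heifer 20 had 70.4, 86.0 and 26.8 RPMM. The other 5 heifers averaged 19.6 to 29.3 RPMM, and their highest library had 36.7 RPMM. On Day 16 the 3 animals overlapped the other 5, so their lead was seen on Days 0 and 8 alone. Across 15 settings the adjusted p lay between 5.61e-05 and 0.0465.

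The last 2 calls were less stable. miR-2403 was highest in heifer 21 at 26.4 ± 7.90 RPMM and lowest in heifer 20 at 11.3 ± 2.03 RPMM (SD, n = 3), with an adjusted p of 0.0777 in edgeR that stayed under 0.1 in 4 of 15 settings and reached 0.370 without heifer 20. miR-2904, which the naming rule did not select, had 21.1 RPMM in heifer 18 on Day 0, 11.5 RPMM in heifer 34 on Day 16 and at most 6.62 RPMM in the other 22 libraries. Its adjusted p in edgeR was 0.0846, and 0.478 without that Day 0 library.

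Patterns by animal also appeared among rarer miRNAs when every miRNA with at least 1 count was fitted, in which 10 of 140 members and 10.6% of 697 miRNAs were called (edgeR). miR-2403 was not among the 10. The 4 that were not among the 7 were chosen after their values were seen. miR-2425-5p, within NCKAP5L, was found in 12 of 12 libraries of heifers 18, 22, 25 and 35 with 72 counts and in 2 of 12 libraries of the other heifers with 2 counts (adjusted p = 0.00105, edgeR). miR-2425-3p, of the same hairpin, was found in 11 of 12 libraries of those heifers with 47 counts and in 2 of 12 of the others with 2 counts (adjusted p = 0.0384, edgeR). Both arms thus showed the same 4 animals.

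miR-2300b-3p was found in 9 of 9 libraries of heifers 21, 25 and 34 and in 0 of 15 libraries of the other 5 heifers (adjusted p = 0.0938, edgeR). It rested on 22 counts in all, with 1 to 5 per library. miR-2313-5p averaged 2.85 ± 0.472 RPMM in heifer 21 and 2.54 ± 0.424 RPMM in heifer 35, and 0.470 to 1.07 RPMM in the other 6 (SD, n = 3; adjusted p = 0.0601, edgeR). Its libraries of heifers 21 and 35 lay above all the others.

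**Figure D4:**
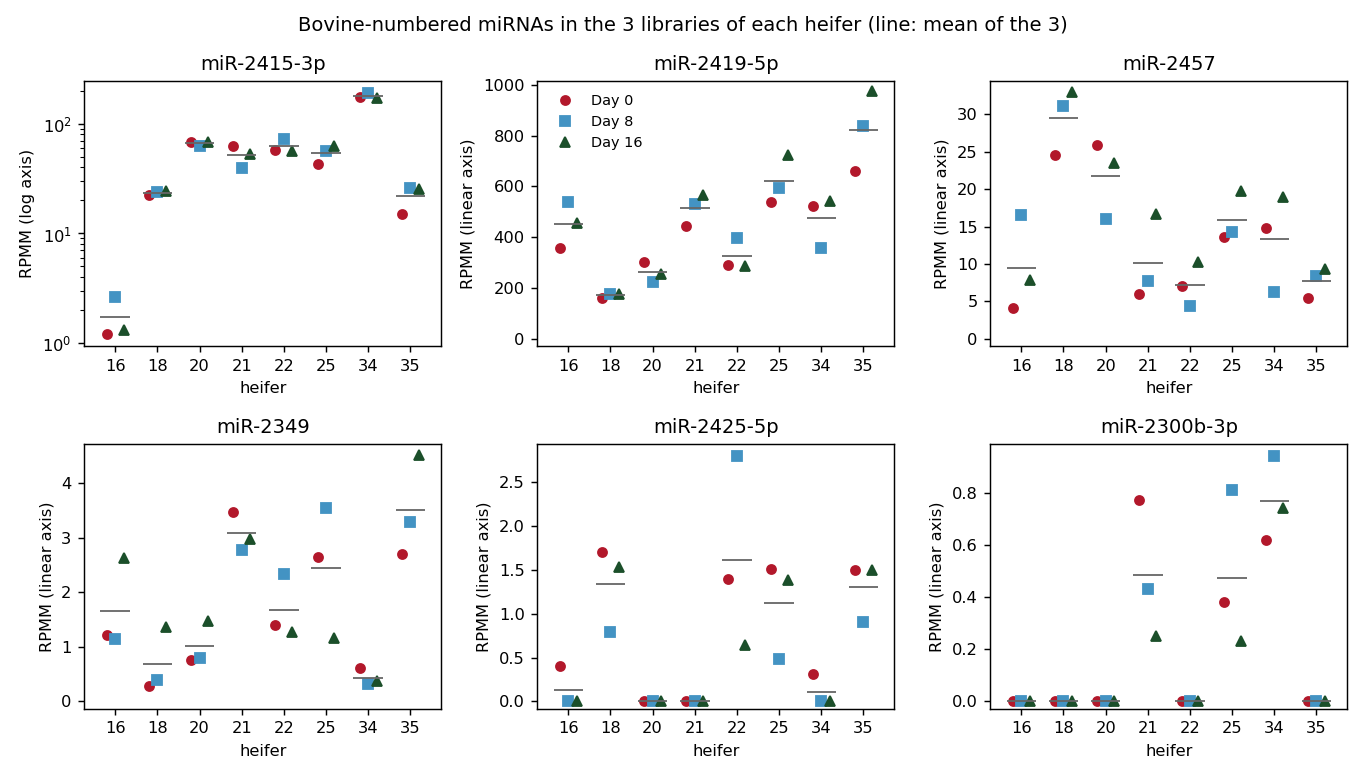
RPMM of 6 miRNAs in the 3 libraries of each of 8 heifers (red circles Day 0, blue squares Day 8, green triangles Day 16, line at the mean of the 3). miR-2415-3p, on a log axis, runs from 1.21 RPMM in heifer 16 to 191 RPMM in heifer 34, and miR-2300b-3p has counts in heifers 21, 25 and 34 only among the 24 libraries.

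No miRNA of the range was called between days. Among the 181 miRNAs that passed the stricter filter, miR-2419-5p was the 1 from the range. It had 160 to 660 RPMM with a median of 402 on Day 0, 176 to 837 RPMM with a median of 465 on Day 8, and 177 to 975 RPMM with a median of 499 on Day 16. The 3 days overlapped over most of their ranges.

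The log2 difference of miR-2419-5p was 0.08 ± 0.17 (SE) from Day 0 to Day 8, 0.33 ± 0.17 from Day 0 to Day 16 and 0.25 ± 0.17 from Day 8 to Day 16, each higher on the later day in 6 of 8 heifers. Adjusted p was 0.857, 0.375 and 0.807 (edgeR, n = 8 heifers). In that test 0% of the 181 miRNAs were called for the effect of day, 1.1% from Day 0 to Day 8, 0% from Day 0 to Day 16 and 0% from Day 8 to Day 16. At an unadjusted p under 0.05 miR-2419-5p passed none of these in edgeR, where 12.7%, 14.4%, 14.4% and 3.87% of the 181 passed. Nor did it with DESeq2, where 30, 35, 31 and 11 of the 181 passed. In edgeR it passed that unadjusted limit from Day 0 to Day 16 without heifer 16, 20 or 34, beside 25, 25 and 21 of the 181. Without heifer 16 it also passed it from Day 8 to Day 16, beside 19 of the 181. Its Day 0 to Day 8 difference turned negative in 3 of the 8 fits that left out a heifer.

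Among the 325 miRNAs of the wider test, 0 of the 26 from the range passed for any of the 4 comparisons, with edgeR and with DESeq2. edgeR called 0.615% of the 325 for the effect of day, 1.54% from Day 0 to Day 8, 0.308% from Day 0 to Day 16 and 0% from Day 8 to Day 16. At an unadjusted p under 0.05, edgeR had 3, 1, 4 and 3 of the 26 against 37, 46, 39 and 17 of the 325, which are 11.4%, 14.2%, 12% and 5.23%. DESeq2 had 5, 2, 7 and 5 of the 26 against 44, 53, 45 and 20 of the 325, which are 13.5%, 16.3%, 13.8% and 6.15%. All 4 from Day 0 to Day 16 were higher on Day 16, where 4.31% of the 325 were higher and 7.69% lower.

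The direction of the 26 depended in part on scaling. From Day 0 to Day 16 they had a median log2 difference of 0.22, with 18 of 26 above 0, against -0.03 over the 325. With total counts in place of TMM scaling, the median of the 325 moved to -0.21 and that of the 26 to 0.04, with 13 of 26 above 0. In each scaling the median of the 26 was 0.25 above that of the 325. From Day 8 to Day 16 the median of the 26 was 0.04 with TMM and -0.13 with total counts. Erythrocyte RNA was highest on Day 16 by mean. On Days 0, 8 and 16 the erythrocyte marker sum averaged 156979, 152389 and 222078 RPMM, miR-486 took 19.8%, 19.5% and 27.97% of the counts, and the log2 ratio of miR-451 to miR-23a averaged 1.82, 2.17 and 2.77 (n = 8, no test run). With miR-486 and miR-451 as a covariate, the members at an unadjusted p under 0.05 went from 4 to 1 of 26 from Day 0 to Day 16 and from 3 to 0 of 26 from Day 8 to Day 16 (edgeR). Over the 325 miRNAs the same counts went from 39 to 29 and from 17 to 7.

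The miRNAs with the smallest p for day are described although none passed. miR-2320-5p had 2.02 to 10.6 RPMM with a median of 7.05 on Day 0, 3.99 to 13.1 with a median of 9.37 on Day 8 and 6.21 to 15.9 with a median of 10.3 on Day 16. Its Day 16 value was above Day 0 in 7 of 8 heifers, with a log2 difference of 0.63 ± 0.22 (SE; edgeR, unadjusted p = 0.0098, adjusted p = 0.332, n = 8). The days overlapped.

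miR-2339, within the tRNA-processing endonuclease gene ELAC2, had medians of 3.26, 3.73 and 5.27 RPMM on Days 0, 8 and 16, with ranges of 1.71 to 4.71, 2.33 to 5.17 and 2.72 to 7.41. From Day 0 to Day 16 its log2 difference was 0.65 ± 0.25 (SE), higher in 6 of 8 heifers (edgeR, adjusted p = 0.386, n = 8). From Day 8 to Day 16 it was 0.54 ± 0.24, higher in 5 of 8 (edgeR, adjusted p = 0.755).

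miR-2457 had medians of 10.3, 11.3 and 17.8 RPMM on Days 0, 8 and 16, with ranges of 4.04 to 25.9, 4.43 to 31.2 and 7.90 to 33.02. Day 16 was above Day 0 in 7 of 8 heifers by a log2 difference of 0.69 ± 0.30 (SE; edgeR, adjusted p = 0.386, n = 8). The ranges of the days overlapped.

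miR-2368-3p had medians of 1.94, 3.31 and 2.52 RPMM on Days 0, 8 and 16, with ranges of 0.75 to 3.04, 1.71 to 5.34 and 0.90 to 4.07. From Day 0 to Day 8 its log2 difference was 0.70 ± 0.25 (SE), higher in 7 of 8 heifers (edgeR, unadjusted p = 0.0109, adjusted p = 0.187, n = 8). This was the 1 miRNA of the 26 with an unadjusted p under 0.05 for that pair of days.

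miR-2376 had medians of 26.3, 40.6 and 30.4 RPMM, with ranges of 17.4 to 67.5 on Day 0, 22.1 to 73.8 on Day 8 and 15.8 to 42.7 on Day 16. Day 8 was above Day 0 in 7 of 8 heifers, by a log2 difference of 0.44 ± 0.23 (SE; edgeR, adjusted p = 0.366, n = 8). The exception was heifer 21, whose Day 0 library was also the highest of that day. Without heifer 21 the difference was 0.69 (edgeR, adjusted p = 0.0427, n = 7).

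miR-2403 had medians of 13.5, 22.7 and 16.9 RPMM on Days 0, 8 and 16, with ranges of 8.95 to 35.5, 11.7 to 26.0 and 12.4 to 25.9. Day 8 exceeded Day 0 in 6 of 8 heifers, by a log2 difference of 0.32 ± 0.17 (SE; edgeR, adjusted p = 0.403, n = 8). Without heifer 21 it was 0.46 (edgeR, adjusted p = 0.0921, n = 7). These were the 2 of the 26 called in any fit between days, both without heifer 21, where 42 of all 325 miRNAs were called from Day 0 to Day 8 in place of 5. The Day 0 library of heifer 21 had a platelet marker sum of 67171 RPMM, the highest of the 24, and its part in these differences was not tested.

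From Day 8 to Day 16 the smallest p belonged to miR-2903, within the ubiquitin-conjugating enzyme gene UBE2J1. It had medians of 1.28, 1.81 and 2.60 RPMM on Days 0, 8 and 16 and a log2 difference of 0.90 ± 0.39 (SE), higher in 5 of 8 heifers (edgeR, adjusted p = 0.755, n = 8). miR-2474 had medians of 6.91, 6.68 and 8.14 RPMM, and Day 16 exceeded Day 8 in 7 of 8 heifers by 0.50 ± 0.22 (SE; edgeR, adjusted p = 0.755). Ranges of the days overlapped for both.

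As a group, the 160 miRNAs were counted and summed in each library. On Day 0, 7 to 33 of them had more than 10 counts, with a median of 17.5, on Day 8 it was 17 to 36 with a median of 24, and on Day 16 it was 12 to 26 with a median of 21. Day 8 exceeded Day 0 by 6.5 ± 8.02 miRNAs (SD, n = 8), in 7 of 8 heifers (exact permutation of signs, two-sided p = 0.0625, adjusted p = 0.141). Day 16 exceeded Day 0 by 2.25 ± 6.25, also in 7 of 8 (exact permutation test, adjusted p = 0.383), and differed from Day 8 by -4.25 ± 5.97, higher in 2 of 8 (exact permutation test, adjusted p = 0.141).

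Depth moved with that number, being highest on Day 8. Thinned to the smallest library of 1299679 counts, the expected number above 10 counts on Days 0, 8 and 16 was 10.4 ± 1.65, 10.7 ± 1.79 and 10.9 ± 1.62 (SD, n = 8). Day 8 then exceeded Day 0 by 0.288, and Day 16 exceeded Day 0 by 0.563 and Day 8 by 0.275. None passed (exact permutation test, adjusted p = 0.727 for each, n = 8). Above 1 RPMM, a limit scaled to depth, there were 36.4 ± 3.70, 36.8 ± 5.65 and 36.8 ± 2.92. Since 1 read stood for 0.161 to 0.439 RPMM, counting error near this limit still differed with depth. By the limit of more than 10 counts, which moves with depth, heifer 21 again went against the others. Without it Day 8 exceeded Day 0 by 8.57 and Day 16 exceeded Day 0 by 4.43 (exact permutation test, adjusted p = 0.0234 for each, n = 7). Heifer 21 had 5181968 mapped reads on Day 0, 4681353 on Day 8 and 4028950 on Day 16. Thinned counts were not compared without heifer 21, so the part of depth in the differences found without it was not tested.

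The summed level was 529 to 912 RPMM with a median of 706 on Day 0, 443 to 1174 with a median of 757 on Day 8 and 404 to 1230 with a median of 741 on Day 16. The log2 differences were 0.09 ± 0.28 from Day 0 to Day 8, 0.06 ± 0.28 from Day 0 to Day 16 and -0.02 ± 0.23 from Day 8 to Day 16 (SD, n = 8), higher in 4, 5 and 4 of 8 heifers. None passed the exact permutation test (adjusted p = 0.781 for each). The differences lay within the spread between heifers, with heifer 35 highest and heifer 18 lowest on both Days 8 and 16.

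**Figure D5:**
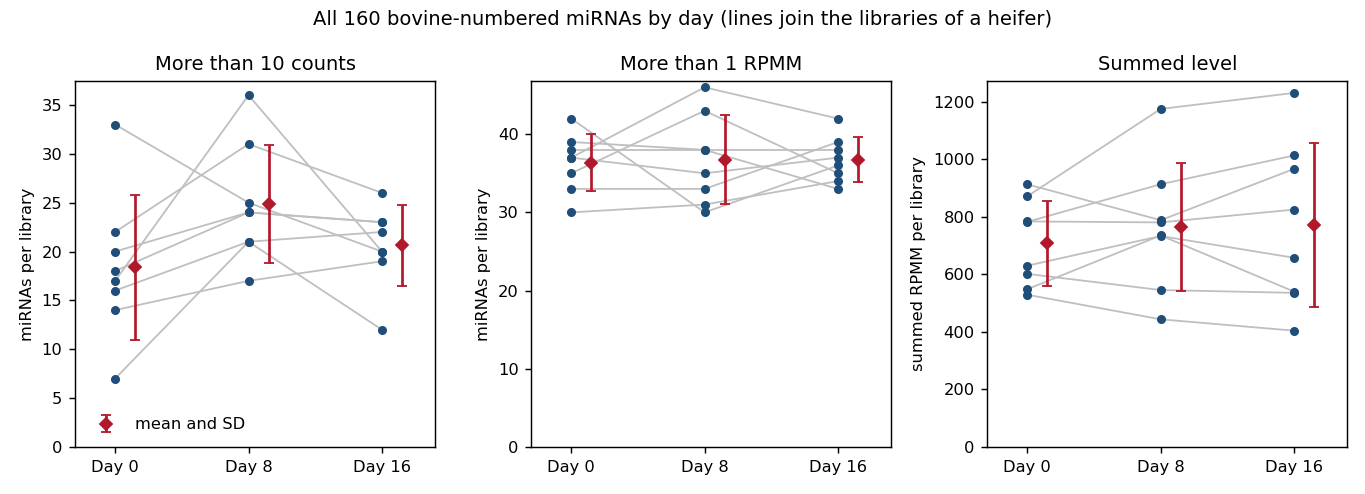
Number of the 160 miRNAs with more than 10 counts, number above 1 RPMM, and summed RPMM in each library by day (blue points, lines join the libraries of a heifer, red diamonds and bars give the mean and SD of 8). Above 10 counts the means are 18.4, 24.9 and 20.6 on Days 0, 8 and 16, and above 1 RPMM they are 36.4, 36.8 and 36.8.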

How the data were processed

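Small RNA libraries from 24 plasma samples were aligned by the authors with Bowtie 0.12.9 in sRNAbench, with 1 mismatch allowed, and reads were mapped to bovine and human mature miRNAs. The deposited tables hold raw counts per miRNA and RPMM (RPM per mapped reads), which the authors computed by dividing counts by the genome-mapped reads of the library. Equal counts of overlapping entries show that a read may be counted under more than 1 name. The positions carry no build name, and no member sequence was used here.

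Levels were described in RPMM and tests were run on the deposited counts. edgeR 4.0.16 (quasi-likelihood, TMM scaling, day and heifer as terms) in R 4.3.3 was used with Benjamini-Hochberg adjustment over all miRNAs tested and a threshold of 0.1. The stricter filter required more than 25 RPMM in at least 6 of 8 libraries of each day, and the wider one at least 10 counts in at least 8 of 24 libraries. Counts of detected miRNAs, summed levels and arm ratios were compared by two-sided exact sign-change permutation over 8 heifers (256 sign changes). This was run in Python 3.11.15 with NumPy 2.4.6 and adjusted over each family, with a threshold of 0.05 for the arms. SciPy 1.17.1 was used for the thinning and the exact intervals. Total miRNA counts were 1299679 to 4700764 per library. Intervals and limits cover counting error only.

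Heifer was a block because the same animals were sampled on all days. Same-heifer libraries deviated together, with a median correlation of 0.349 over 325 miRNAs against -0.0725 between heifers. Libraries of a heifer are separate bleedings. The p-values for the effect of heifer set differences between heifers against the spread between the days of an animal.

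The naming rule took every member under the stricter filter, the 12 highest means, in the wider test 4 members by p for day, 3 by p for each pair of days and 5 by p for heifer, both arms of tested hairpins, and members with counts equal to another entry. Of the 22 such members only miR-2319a and miR-2319b were named for this, since the others had at most 2 reads, which made 37 in all. A part of the rule for miRNAs alike in sequence could not be applied. Others, such as near neighbours in the genome, miR-2425 and miR-2904, were picked with their values in view. The members and lists were chosen with earlier results of these data known. Alternatives were DESeq2 1.42.0, limma 3.58.1, other scalings, filters and added counts, no block, and leaving out each heifer. Chosen after the data were seen were the erythrocyte covariate and leaving out 1 library. The edgeR steps were tested on simulated data.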

Additional observations from a re-analysis of the deposited data

Results flagged for a closer look

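In each day, the levels of 30 of the miRNAs, their number above 10 counts and their summed level were examined for a heifer whose gap to the nearest other heifer took up more of the range than Dixon's 95% limit of 0.526 for 8 samples. This was so in 12 of the 90 groups of single miRNAs and in 0 of the 6 groups of the number and the sum. For normal values chance alone marks about 1 in 20 groups. The 30 came from the named miRNAs, some of them picked by their p for heifer, and all days share the same animals. The 12 therefore cannot be set against that rate and are given as a description. Heifer 34 stood apart for miR-2415-3p on every day, with 175 RPMM on Day 0 (others 1.21 to 68.6), 190.59 RPMM on Day 8 (others 2.66 to 72.3) and 171.88 RPMM on Day 16 (others 1.32 to 68.9). Heifer 18 stood apart for miR-2457 on Day 8 with 31.19 RPMM (others 4.43 to 16.5).

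miR-2320-3p was marked on every day, in a different animal each time. Heifer 20 had 6.21 RPMM on Day 0 (others 1.80 to 3.67), heifer 35 had 10.03 RPMM on Day 8 (others 2.33 to 3.99), and heifer 34 was lowest on Day 16 with 0.37 RPMM (others 2.63 to 4.43). On Day 0 heifer 21 was highest for miR-2376 with 67.54 RPMM (others 17.4 to 40.9) and for miR-2483-3p with 6.37 RPMM (others 1.49 to 3.64). Heifer 35 was highest on Day 8 for miR-2411-3p with 3.1 RPMM (others 0 to 1.13) and on Day 16 for miR-2448-5p with 2.41 RPMM (others 0 to 0.68). Heifer 34 was highest on Day 16 for miR-2411-5p with 4.07 RPMM (others 0.43 to 2.03).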

How the results depend on the processing

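No miRNA of the range was called between days with DESeq2, limma, other scalings, other filters, no filter or the erythrocyte covariate. Of the results that answer a comparison, 317 of 334 values under alternatives were rated as unchanged. For a number of miRNAs called, this required only an equal or similar number, and between days most were 0. For the other results, direction and side of the threshold had to be kept. Of the results of single miRNAs, 341 of 364 kept the side of the threshold and, where there was one, the direction. Leaving out a heifer gave 4 to 6 miRNAs called for the effect of heifer (4 without heifer 18), beside 42 to 65 of all 325 (42 without heifer 18), and 0 to 2 called from Day 0 to Day 8 in the wider test (2 without heifer 21). The log2 difference of miR-2419-5p from Day 0 to Day 8 lay between -0.048 and 0.18, with -0.048 without heifer 16, -0.0014 without heifer 21 and -0.01 without heifer 22.

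Leaving out a heifer, the difference in detected miRNAs was 4.71 to 8.57 from Day 0 to Day 8 and 1.71 to 4.43 from Day 0 to Day 16, both highest without heifer 21. Counted at 1 or more reads, Day 16 less Day 0 was -2.88, and thinned to equal depth Day 16 less Day 8 was 0.275. The summed level from Day 0 to Day 16 became -0.13 (log2) without miR-2419-5p. From Day 8 to Day 16 it became 0.14 with TMM scaling, and -0.067 to 0.039 when a heifer was left out (0.039 without heifer 22). The arm ratio of miR-2448 was -0.63 with counts summed over days (exact permutation test, adjusted p = 0.119) and -0.88 to -0.50 leaving out a heifer, and that of miR-2483 was -0.50 to -0.30 (-0.50 without heifer 20, exact permutation test, adjusted p = 0.0375). The cause was not tested.

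With no replicate block, 0 miRNAs of the range were called between days in either edgeR test, and the difference in detected miRNAs from Day 0 to Day 8 had an adjusted p of 0.213 (exact permutation test) against 0.141 with the pairing of days within heifers. Depth limits what can be said of the low miRNAs, since 48 of the 140 detected had fewer than 10 reads in all 24 libraries.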
